A study of Mus musculus with 10 samples.

Results

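The cytokine receptor genes Il2rb, Il2rg, Il2ra, Il15ra, Il7r, Il4ra and Il21r (7 in all) were examined for chromatin accessibility in invariant natural killer T (iNKT) cells. A region of the deposited ATAC-seq table was assigned to a gene if it overlapped the gene body or lay within 50 kb of the gene start (GENCODE M21), which gave 145 distinct regions of 94823. The windows held 35 regions for Il2rb, 16 for Il2rg, 22 for Il2ra, 13 for Il15ra, 24 for Il7r, 28 for Il4ra and 37 for Il21r. Il2ra and Il15ra start 62.5 kb apart and share 10 regions, and Il4ra and Il21r start 51.3 kb apart and share 20 regions, so counts by gene overlap. Each region is named below by the gene whose start is nearer and by the distance of its centre from that start, with negative values upstream. ATAC-seq uses a transposase that inserts sequencing adapters into accessible DNA, and the table counts insertions in each region. Thymic iNKT cells of 4 groups were profiled: iNKT1 from BALB/c mice (n = 2), iNKT1 from SKG mice (n = 2), iNKT2 from BALB/c mice (n = 3) and iNKT2 from SKG mice (n = 3). SKG mice are on the same BALB/c background and carry a hypomorphic allele of Zap70, the kinase next to the T cell receptor, so that this receptor signals weakly. The SKG animals and their BALB/c controls therefore differ at Zap70 by design, and all 4 groups came from thymus.

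These receptors share the common gamma chain, CD132, which is encoded by Il2rg. The chain pairs with a private chain for interleukin (IL)-4, IL-7 and IL-21 (Il4ra, Il7r, Il21r). For IL-2 and IL-15 it pairs with the beta chain CD122, encoded by Il2rb, and the alpha chains encoded by Il2ra and Il15ra raise the affinity for IL-2 or present IL-15. Ligand binding activates the kinases Jak1 and Jak3, which phosphorylate Stat factors. IL-15 received through CD122 is known for its role in the survival and maturation of iNKT1 cells, the interferon-gamma producers, whereas iNKT2 cells produce IL-4.

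The study sorted iNKT1 as CD27+ CD122+ cells and iNKT2 as CD27+ CD122- cells. CD122 is the Il2rb protein, so Il2rb helped to choose the cells, and its differences between subsets are given as a description without a test. Within a subset, SKG and BALB/c cells passed the same CD122 gate, so their comparison at Il2rb is conditioned on the product of this gene, and a genotype difference there may be limited by the gate. In bulk cells, fewer cells with an open region and less opening per cell cannot be told apart. The labels do not say that replicates came from separate animals, so p-values measure the spread between these libraries, which may be technical.

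Insertions inside the table's regions totalled 14988590 in the shallowest library and 36342635 in the deepest. Levels below are in CPM, the insertions of a region scaled by the library total and its TMM factor. Regions within 1 kb of the starts of the T cell genes Cd3e, Cd3g and Zap70 summed to 98.5 to 182 in every library. The iNKT1 markers Tbx21, Cxcr3 and Ifng summed to 130 to 161 in the iNKT1 libraries and 21.8 to 33.0 in the iNKT2 libraries, while the fourth iNKT1 marker, Klrb1c, held no region. The iNKT2 list (Zbtb16, Gata3, Il4, Il17rb) did not part the subsets at 86.8 to 134. Within it, Zbtb16, which encodes the lineage factor PLZF, was at 38.0 to 44.3 in iNKT1 and 25.2 to 48.8 in iNKT2, and Il17rb was at 6.74 to 9.26 in iNKT1 and 15.1 to 18.9 in iNKT2. The iNKT17 markers Il23r and Ccr6 summed to 0.220 to 0.835 in iNKT1 and 5.21 to 9.32 in iNKT2. Of these, Ccr6 was at 0.660 to 1.08 in BALB/c iNKT2 and 2.38 to 3.03 in SKG iNKT2, without overlap, while Il23r was at 4.14 to 7.46 and 4.37 to 6.29, and the part of such cells in the SKG iNKT2 results was not tested. The B cell gene Pax5, the myeloid genes Csf1r and Lyz2 and the immature thymocyte genes Rag1, Rag2 and Cd8b1 held no region near their starts, Ebf1 was at 1.99 to 3.88 and Spi1 at 9.60 to 29.3. The library SKG iNKT2 replicate 1 stood apart at some of these loci. It was the highest of the 3 SKG iNKT2 libraries in 29 of 35 Il2rb regions, 27 of 28 Il4ra regions and 36 of 37 Il21r regions, against 44.3% of all regions, but in only 4 of 22 Il2ra regions. Its iNKT1 marker sum was 33.0, against 26.2 and 25.6 in the other SKG iNKT2 libraries and 32.7, 23.5 and 21.8 in BALB/c iNKT2. BALB/c iNKT2 replicate 1 leaned the same way, and 32.7 was its marker sum. Its summed levels were also the highest of its group at Il2rb (193 against 170 and 172), Il4ra (92.3 against 79.9 and 79.8) and Il21r (146 against 114 and 114). Promoter tests are given with all libraries only. The main counts of receptor regions by genotype in iNKT2, the Il4ra and Il21r sums and the regions called at these 2 genes are given with and without SKG iNKT2 replicate 1. The values without it keep BALB/c iNKT2 replicate 1, and a shared replicate effect was not tested.

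Sequences are shown for the region with the smallest unadjusted p by genotype, outside untranslated regions, at each of Il4ra, Il21r, Il2ra and Il7r, so that the regions described below can be read. The middle 300 bases of each are given from RefSeq's GRCm38 reference (plus strand), which is a C57BL/6J sequence and not that of BALB/c. Il4ra +9.3 kb (chr7:125561315-125561614) lies in an Il4ra intron, and Il21r -22.1 kb (chr7:125581204-125581503) lies between the genes, just past the 3' end of Il4ra. Il2ra -16.7 kb (chr2:11625957-11626256) overlaps a coding exon of Gm17490, an annotated gene upstream of Il2ra. Il7r -3.4 kb (chr15:9533386-9533685) is intergenic, upstream of the Il7r start. Capitals mark every match, on either strand, to 7 short motif strings: T-box TCACACC, RUNX TGTGGT, ETS AGGAAG, NFAT TGGAAA, Egr GTGGGCG or GTGGGTG, STAT TTCNNNGAA and TCF CTTTGAT.
Il4ra +9.3 kb: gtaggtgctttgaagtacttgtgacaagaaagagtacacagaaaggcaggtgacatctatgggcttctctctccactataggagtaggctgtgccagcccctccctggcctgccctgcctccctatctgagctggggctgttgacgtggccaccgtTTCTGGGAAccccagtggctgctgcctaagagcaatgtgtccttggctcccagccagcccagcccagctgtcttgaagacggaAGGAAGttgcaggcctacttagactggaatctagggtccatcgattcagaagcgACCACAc
Il21r -22.1 kb: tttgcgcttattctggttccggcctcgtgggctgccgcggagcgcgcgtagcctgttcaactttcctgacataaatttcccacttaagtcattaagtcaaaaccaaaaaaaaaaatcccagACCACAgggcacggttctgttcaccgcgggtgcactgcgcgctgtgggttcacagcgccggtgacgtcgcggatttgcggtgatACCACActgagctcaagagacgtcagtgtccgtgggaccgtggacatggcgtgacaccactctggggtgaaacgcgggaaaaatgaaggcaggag
Il2ra -16.7 kb: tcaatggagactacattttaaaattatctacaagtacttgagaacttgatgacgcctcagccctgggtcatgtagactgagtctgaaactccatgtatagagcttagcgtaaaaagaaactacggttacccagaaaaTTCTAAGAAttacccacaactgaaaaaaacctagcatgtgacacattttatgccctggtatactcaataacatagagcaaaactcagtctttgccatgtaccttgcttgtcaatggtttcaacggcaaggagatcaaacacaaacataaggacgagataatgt
Il7r -3.4 kb: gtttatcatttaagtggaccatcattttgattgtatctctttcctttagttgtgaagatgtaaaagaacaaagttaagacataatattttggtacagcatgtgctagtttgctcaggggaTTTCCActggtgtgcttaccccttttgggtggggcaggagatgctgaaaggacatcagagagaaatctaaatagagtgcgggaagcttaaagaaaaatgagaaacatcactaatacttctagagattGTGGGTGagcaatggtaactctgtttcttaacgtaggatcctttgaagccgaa
The Il4ra window holds 1 STAT, 1 ETS and 1 RUNX string, the Il21r window 2 RUNX strings, the Il2ra window 1 STAT string and the Il7r window 1 NFAT and 1 Egr string. Among the middle 300 bases of all 94823 regions, a STAT string occurred in 8.75%, an ETS string in 45.3%, a RUNX string in 30.3%, an NFAT string in 23.4% and an Egr string in 14.0%. The matches describe letters and are not evidence that a factor binds.

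SKG iNKT2 cells had more accessible chromatin than BALB/c iNKT2 cells at Il4ra, Il21r and Il2ra, and no receptor region was called less accessible in the fit of all libraries without pairing. With the replicate number as a block, 11 were called higher and 1 lower, Il2rb -26.8 kb (log2 -2.33, adjusted p = 0.0021). Of all 94823 regions, that fit called 239 higher and 4730 lower. Calls required at least a 4-fold change together with an adjusted p below 0.01 in edgeR's quasi-likelihood test, with the adjustment (Benjamini-Hochberg) made over the whole table. By this rule 11 of 145 regions (7.59%) rose in SKG iNKT2 against BALB/c iNKT2, where 0.252% of all regions rose, and 0 fell, where 4.73% of all regions fell. Beside that 0, 4 regions were lower at an unadjusted p under 0.05 in edgeR, DESeq2 called 1 lower and voom 0. The 11 became 20 with voom and quantile normalization, where 1173 of all regions rose, and 3 among the 71183 regions at or above the lower quartile of mean count, of which 98 rose. The 11 regions were 5 named under Il4ra, 4 under Il21r and 2 under Il2ra. With no fold threshold, 42 receptor regions (29.0%) were higher and 1 (0.690%) was lower, against 4.02% and 10.1% of all regions. The median log2 change of the 145 regions was 0.47, against 0.01 for all regions. Without SKG iNKT2 replicate 1, 8 regions were called higher, each of them among the 11, against 0.212% of all regions, and 1 lower, against 5.53%. With no fold threshold that fit gave 32 higher and 3 lower, against 4.58% and 10.5% of all regions.

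In iNKT1 few receptor regions passed the test between genotypes. Of 145 regions, 0 rose in SKG iNKT1 (0.281% of all regions) and 1 fell (0.732% of all regions), which was Il2ra -7.6 kb. Beside that 0, 2 regions were higher at an unadjusted p under 0.05 in edgeR, and DESeq2 and voom called 0. With no fold threshold 0 were higher and 4 were lower, where the shares of all regions were 0.662% and 1.42%. The 4 were Il2ra -7.6 kb, Il2ra +8.8 kb, Il7r -3.4 kb and Il21r +4.1 kb. The difference between the genotype effects of the 2 subsets, tested as an interaction, was called at 4 of 145 regions (2.76%) with a higher change in iNKT2 (0.189% of all regions) and at 0 with a lower one (0.341% of all regions). At an unadjusted p under 0.05 in edgeR, 2 regions had a lower change, and DESeq2 and voom called 0. The 4 calls became 2 without BALB/c iNKT2 replicate 2 or 3 and 7 without BALB/c iNKT2 replicate 1. Of all regions, the 179 called became 89 and 64 without replicates 2 and 3 and 294 without replicate 1. Without any one of the iNKT1 libraries, fewer receptor regions and fewer of all regions were called, but a single library then stood for its group.

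**Figure D1:**
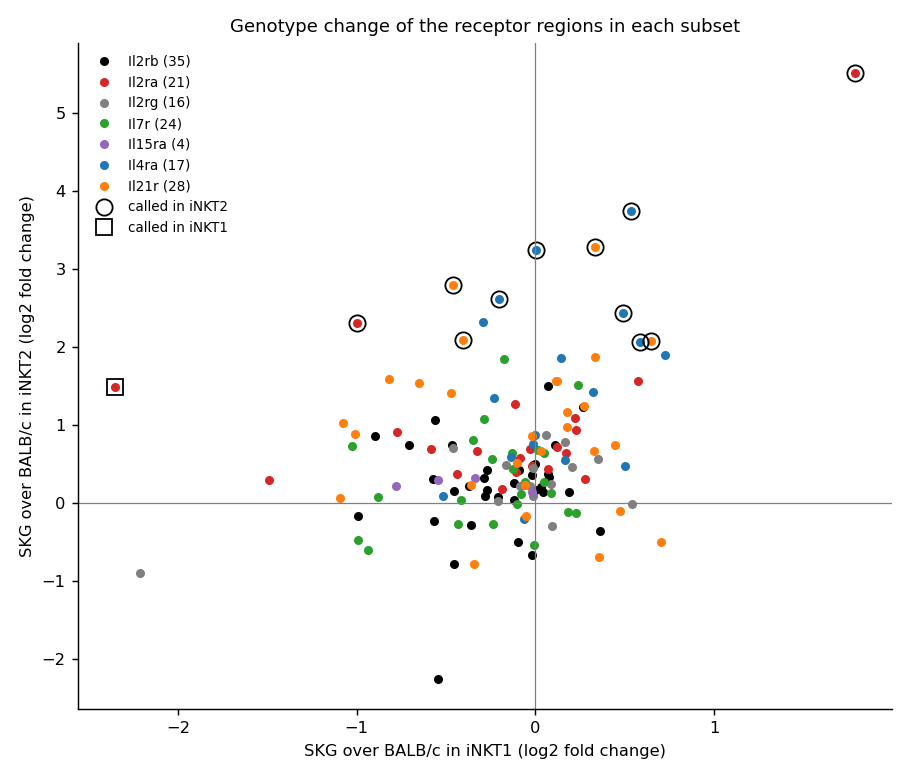
Log2 change of SKG over BALB/c in iNKT1 (horizontal axis) and in iNKT2 (vertical axis) for the 145 receptor regions, coloured by the gene they are named under (number of regions in brackets). Circles mark the 11 regions called in iNKT2, all above 0, and the square marks Il2ra -7.6 kb, called in iNKT1 at -2.35. The 2 axes use different libraries.

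Between subsets, the 6 genes other than Il2rb were split. In BALB/c mice, 15 of their 110 regions (13.6%) fell in iNKT2 against iNKT1, where 6.36% of all regions fell, and 4 (3.64%) rose, where 15.5% of all regions rose. In SKG mice, 4 (3.64%) fell, against 6.96% of all regions, and 9 (8.18%) rose, against 10.2%. Without SKG iNKT2 replicate 1, 9 fell and 7 rose in SKG, where 7568 and 9089 of all 94823 regions did, so the share that fell was then not below that of all regions. The split also moved under voom with quantile normalization, which changes the test as well as the scaling. There 30 fell and 3 rose in BALB/c (8966 and 9042 of all regions), and 5 fell and 4 rose in SKG (7011 and 4244 of all regions). With the scaling alone changed, 14 fell and 4 rose in BALB/c with DESeq2-type size factors and 13 and 5 with library totals, and in SKG 5 and 9, and 3 and 11. The BALB/c and SKG subset comparisons use different libraries, but each shares a group with a genotype comparison, so values are given side by side and are not independent. Of the 15 regions that fell in BALB/c, 13 belonged to the Il4ra and Il21r interval, and the others were Il2ra +2.7 kb and Il15ra -12.0 kb. The 4 that rose were Il2ra -23.0 kb, Il2ra +23.7 kb, Il7r -6.1 kb and Il2rg +27.1 kb, and none of these exceeded 5.01 CPM in any library. They were outside the naming rule and were named after their values were seen.

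Promoter regions, those that hold the gene start, were open for all 7 genes in all 4 groups. Per kb of region and over all 10 libraries, the Il2rb promoter was the highest at 80.4 CPM, followed by Il2rg at 52.1, Il4ra at 45.0, Il7r at 43.9, Il2ra at 36.5, Il15ra at 27.8 and Il21r at 21.4. The order differed between subsets. In BALB/c iNKT1 the Il2rb promoter stood at 137 per kb, far above Il2rg at 59.9 and Il4ra at 58.9, whereas in BALB/c iNKT2 it stood at 40.7, next to Il2rg at 39.8. In SKG iNKT2 Il2rg led at 54.5, above Il7r and Il2rb at 45.3 each and Il4ra at 44.8. Il21r had the lowest mean in all 4 groups, at 32.2 in BALB/c iNKT1, 33.0 in SKG iNKT1, 10.9 in BALB/c iNKT2 and 17.0 in SKG iNKT2. Its libraries overlapped those of Il15ra in the iNKT1 groups and in SKG iNKT2. In iNKT1, no promoter differed by genotype, with log2 changes of -0.13 to 0.03 and adjusted p of 0.74 or more. In iNKT2, the promoters of Il4ra (log2 0.58, adjusted p = 0.0032), Il2ra (0.58, 0.0032) and Il2rg (0.45, 0.0079) were higher in SKG at an adjusted p under 0.01 and under 4-fold. The changes at Il7r (0.44, adjusted p = 0.016), Il21r (0.67, 0.073), Il2rb (0.16, 0.49) and Il15ra (0.14, 0.56) did not pass.

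**Figure D2:**
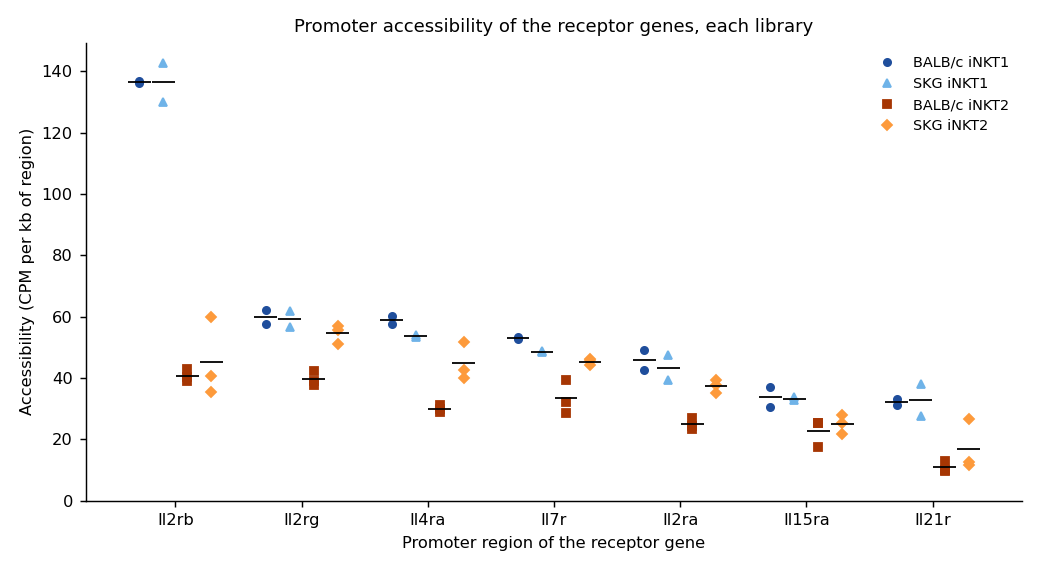
Accessibility of the promoter region of each receptor gene in CPM per kb of region. Points are libraries, coloured by group, and bars are group means. The Il2rb promoter averages 137 in BALB/c iNKT1 and 40.7 in BALB/c iNKT2, and in SKG iNKT2 the highest Il2rb, Il4ra and Il21r point is replicate 1.

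Il2rb encodes CD122, the signalling chain for IL-2 and IL-15. Its promoter had 93.2 and 93.7 CPM in BALB/c iNKT1 and 88.9 and 97.6 in SKG iNKT1. In BALB/c iNKT2 it had 29.4, 26.6 and 27.5, and in SKG iNKT2 40.9, 24.3 and 27.8. The iNKT1 and iNKT2 libraries did not overlap, and within each subset the genotypes overlapped. Along the locus the same order was seen at most regions. In the BALB/c libraries the fitted log2 difference of iNKT2 from iNKT1 was below 0 at 34 of 35 regions and in SKG at 33 of 35, with medians of -2.37 and -1.77. All these subset values describe cells that were gated on the product of this gene.

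The 2 Il2rb regions with the largest subset differences lay upstream of the gene and had iNKT2 levels under 1 CPM. At Il2rb -6.9 kb, the libraries had 7.59 and 6.88 in BALB/c iNKT1 and 8.74 and 6.48 in SKG iNKT1. There the BALB/c iNKT2 libraries had 0.314, 0.106 and 0.124, and those of SKG iNKT2 0.862, 0.367 and 0.135. At Il2rb -17.3 kb, iNKT1 libraries lay between 5.07 and 7.77 and iNKT2 libraries between 0.0794 and 0.502. RefSeq places the 5' end of Il2rb 16350 bp upstream of the GENCODE start used here, between the regions at -15.7 and -16.9 kb, so some upstream regions flank an alternative start. Of the 35 regions in the window, 12 had the Il2rb start as the nearest start of a protein-coding gene, and the others were nearer to C1qtnf6, Kctd17 or Tmprss6. The region with the largest difference in favour of iNKT2, Il2rb +19.4 kb, lies past the 3' end of the gene. It had 14.6 and 17.3 in BALB/c iNKT1 and 14.0 to 22.2 in BALB/c iNKT2, so the subsets overlapped there.

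**Figure D3:**
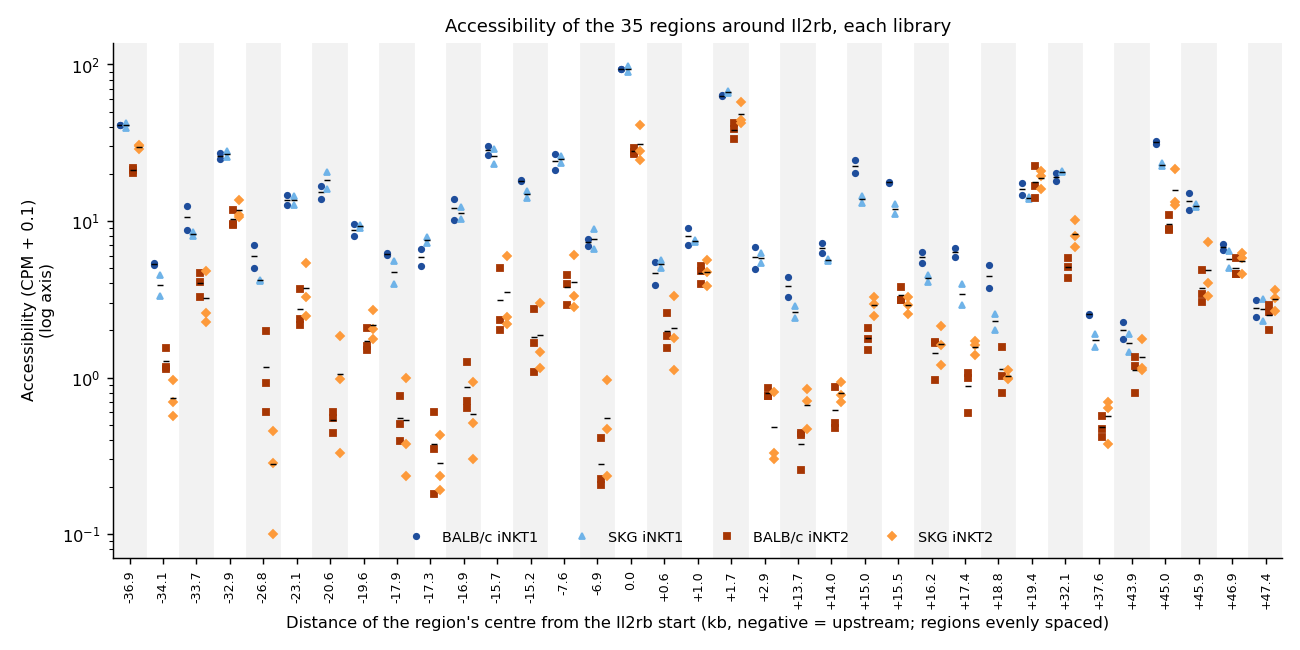
Accessibility in CPM plus 0.1 (log axis) at the 35 regions around Il2rb, ordered by distance from the gene start. Points are libraries, coloured by group, and bars are group means. The iNKT1 libraries lie above the iNKT2 libraries at most regions, the promoter (0.0) is the highest, and the subsets overlap at +19.4 kb.

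No Il2rb region was called by genotype in either subset, among cells of both genotypes gated to the same CD122 status. In iNKT1 the region with the smallest p was Il2rb +15.0 kb, in the gene's untranslated region, at 20.2 and 24.6 in BALB/c and 14.5 and 13.0 in SKG (log2 -0.71 ± 0.21 (SE), adjusted p = 0.062). In iNKT2 the smallest p was at Il2rb -36.9 kb, nearer to the C1qtnf6 start, where BALB/c had 21.1, 20.3 and 21.6 and SKG had 28.7, 29.9 and 30.3. The libraries did not overlap there, and the change was 1.41-fold (log2 0.50 ± 0.11, adjusted p = 0.0036). With no fold threshold, 3 of 35 regions (8.57%) were higher in SKG iNKT2 and 0 lower, against 4.02% and 10.1% of all regions. Without SKG iNKT2 replicate 1, 1 of 35 (2.86%) was higher with no fold threshold, against 4.58% of all regions. In that fit 1 of 35 (2.86%) was called lower, against 5.53% of all regions, and this was Il2rb -26.8 kb. That region, named after its values were seen, had 1.88, 0.503 and 0.825 in BALB/c iNKT2 and 0.357, 0.184 and 0 in SKG iNKT2, and its value with all libraries was log2 -2.25 with an adjusted p of 0.010. With the replicate number as a block it was called (log2 -2.33, adjusted p = 0.0021), which made it the only receptor region called lower in that fit. Of all 94823 regions, 4730 were called lower there. Summed over all 35 regions, Il2rb accessibility was 562 ± 28.6 (SD, n = 2) in BALB/c iNKT1, 523 ± 0.487 (n = 2) in SKG iNKT1, 178 ± 12.3 (n = 3) in BALB/c iNKT2 and 217 ± 41.5 (n = 3) in SKG iNKT2. The last mean was 193 without replicate 1.

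The promoters whose levels across the 10 libraries were most like that of Il2rb were those of Nt5dc2, Rac2 and Pik3ap1, with root mean square differences of 0.17, 0.18 and 0.18 in centred log2 level over 12115 protein-coding promoters. Rac2 lies on the same chromosome, 77.4 kb from the Il2rb promoter. The Rac2 promoter averaged 23.0 in BALB/c iNKT1, 25.8 in SKG iNKT1, 7.79 in BALB/c iNKT2 and 8.63 in SKG iNKT2. For Il21r the most alike were Unc119, Tmub2 and Mapk3, with 0.15, 0.17 and 0.18. The other 5 receptor promoters spanned less than 2-fold between group means and were not ranked.

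Il2rg encodes the chain shared by all of these receptors. Its promoter had 39.0 and 42.2 in BALB/c iNKT1, 38.4 and 42.0 in SKG iNKT1, 28.7, 26.6 and 25.6 in BALB/c iNKT2, and 37.7, 34.6 and 38.6 in SKG iNKT2. The BALB/c iNKT2 libraries were the lowest, without overlap with any other group. Against BALB/c iNKT1 they were lower by log2 -0.59 ± 0.12 (adjusted p = 0.00071), whereas in SKG the subset difference was -0.12 ± 0.13 (adjusted p = 0.44). No Il2rg region was called by genotype in either subset. The smallest p in iNKT2 was at Il2rg +7.3 kb, in the untranslated region of Foxo4, at 3.26, 5.32 and 4.41 in BALB/c and 6.83, 7.76 and 9.37 in SKG (log2 0.87 ± 0.20, adjusted p = 0.0051). In iNKT1 the smallest p was at Il2rg +0.6 kb (log2 0.54 ± 0.27, adjusted p = 0.32). Between subsets, the coding-exon region at +3.0 kb had the smallest p, with log2 -1.32 ± 0.24 in BALB/c (adjusted p = 0.00023) and -1.17 ± 0.26 in SKG (adjusted p = 0.0014). Il2rg +27.1 kb was called higher in iNKT2 in both genotypes, but its 4 iNKT1 libraries were at 0, 0.0441, 0 and 0, so no fold is given. Of 16 regions in this gene-dense window, 3 had the Il2rg start as the nearest, and the regions over Il2rg also overlap the annotated gene Gm20489.

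Il4ra encodes the IL-4 receptor alpha chain and Il21r the IL-21 receptor, and the 2 genes lie next to each other in the same orientation. This interval held most of the receptor regions that rose in SKG iNKT2. They were 7 of 28 Il4ra regions and 8 of 37 Il21r regions, 9 distinct regions in all, where 0.252% of all regions rose. Without SKG iNKT2 replicate 1, 5 of 28 and 5 of 37 rose, against 0.212% of all regions. No region of the interval was called in SKG iNKT1 against BALB/c iNKT1. The region with the smallest p was Il21r -22.1 kb, which was also the most accessible region named under Il21r. It had 13.2, 13.3 and 13.0 in BALB/c iNKT2 and 70.3, 46.1 and 52.1 in SKG iNKT2. The iNKT1 libraries had 33.9 and 46.4 in BALB/c and 27.2 and 33.4 in SKG, above all of BALB/c iNKT2 and overlapping SKG iNKT2 at its lower end. SKG iNKT2 rose 4.27-fold over BALB/c iNKT2 (log2 2.10 ± 0.17, adjusted p = 7.7e-07), and in iNKT1 the change was log2 -0.40 ± 0.20 (adjusted p = 0.32). The difference of these changes was log2 2.50 ± 0.26 (adjusted p = 0.00039). Without SKG iNKT2 replicate 1 the rise was log2 1.90 (adjusted p = 1.5e-07), just under 4-fold.

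**Figure D4:**
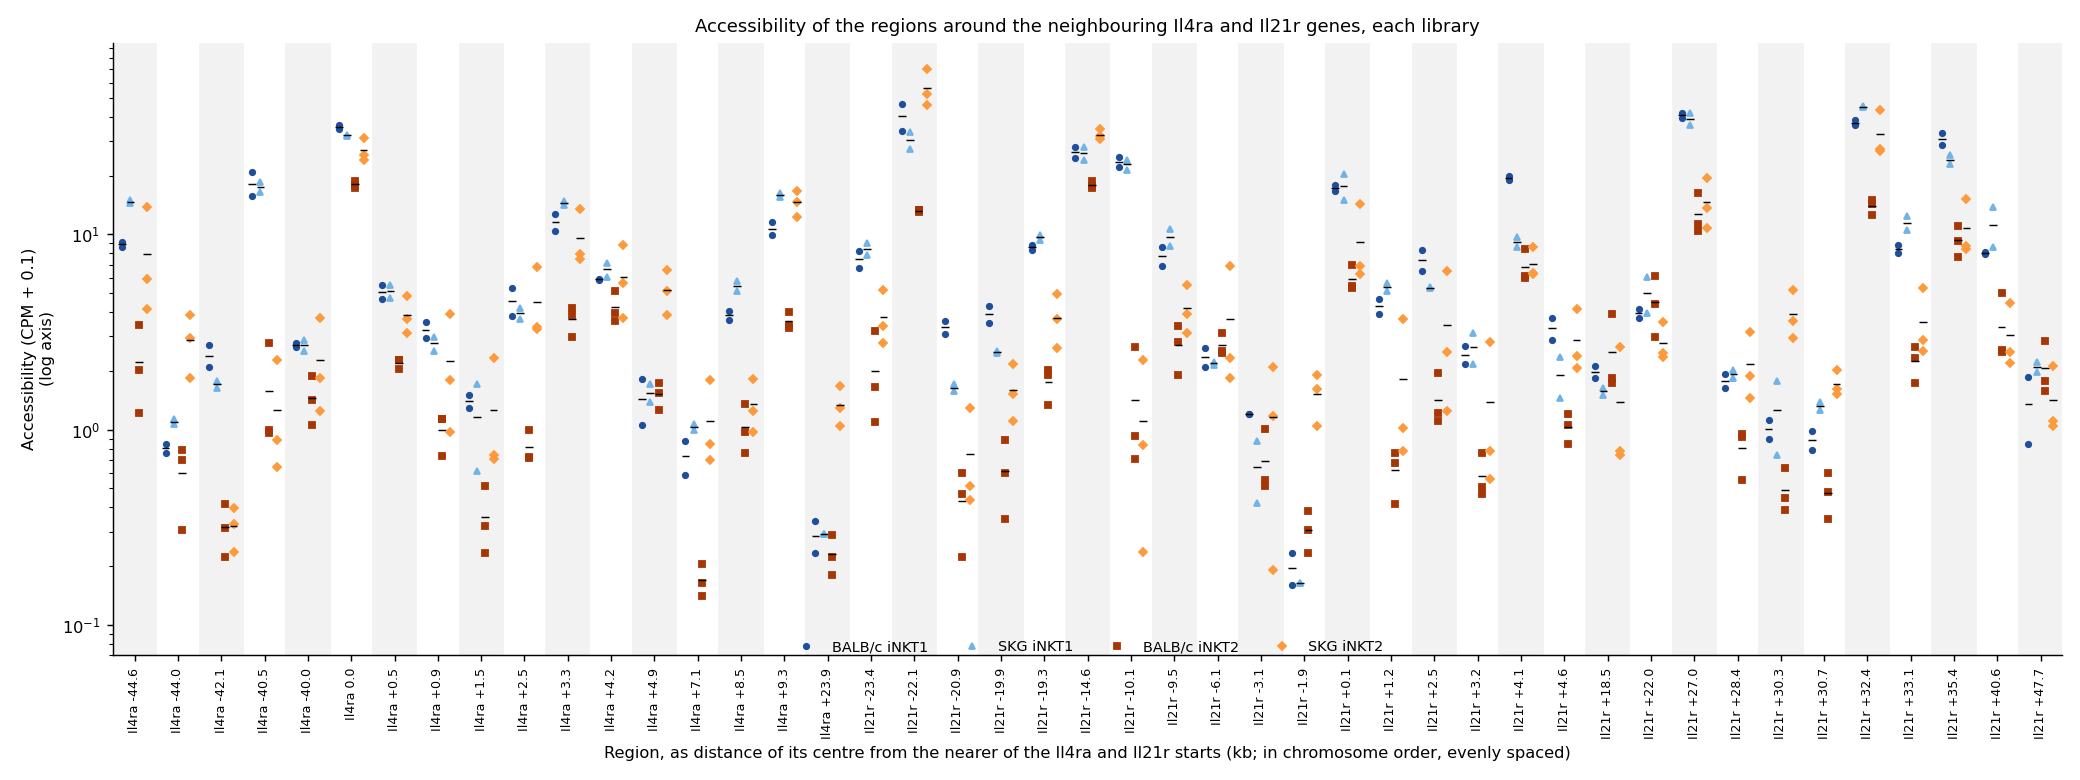
Accessibility in CPM plus 0.1 (log axis) at the regions named under Il4ra or Il21r, in chromosome order. Points are libraries, coloured by group, and bars are group means. BALB/c iNKT2 libraries (dark squares) lie below the other groups at many regions, SKG iNKT2 libraries (diamonds) lie above them at Il4ra +9.3 kb and Il21r -22.1 kb, and the subsets part without a genotype difference at Il4ra -40.5 kb and Il21r -10.1 kb.

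Inside Il4ra, the intron region at +9.3 kb had 3.20, 3.33 and 3.92 in BALB/c iNKT2 and 16.7, 12.2 and 14.6 in SKG iNKT2. BALB/c iNKT1 had 9.80 and 11.4 and SKG iNKT1 16.3 and 15.5. The BALB/c iNKT2 libraries were thus the lowest of the 4 groups, and the SKG libraries of both subsets overlapped. The rise in SKG iNKT2 was 4.18-fold (log2 2.06 ± 0.17, adjusted p = 1.1e-06), and 1.94 on the log2 scale without replicate 1. The intron region at +2.5 kb had 0.627, 0.899 and 0.618 in BALB/c iNKT2, 6.75, 3.26 and 3.17 in SKG iNKT2, 3.73 and 5.20 in BALB/c iNKT1 and 4.11 and 3.59 in SKG iNKT1. It rose by log2 2.62 ± 0.32 in SKG iNKT2 (adjusted p = 3.5e-05) and differed by -0.21 ± 0.35 in iNKT1 (adjusted p = 0.85), and the difference of the 2 was 2.83 ± 0.48 (adjusted p = 0.0052). Without replicate 1 the rise in iNKT2 was 2.14 (adjusted p = 3.7e-05).

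The other called regions of the interval had low levels. Il4ra +7.1 kb held 7 insertions over the 3 BALB/c iNKT2 libraries and 81 over the 3 SKG iNKT2 libraries, a 15.5-fold ratio of rates with an exact 95% interval of 7.18 to 39.7 that covers counting error only. Without SKG iNKT2 replicate 1 the ratio was 8.80 (3.68 to 24.2), from 24 insertions in the other 2 libraries, and the region was still called (log2 3.08, adjusted p = 0.0026). Il4ra +23.9 kb, in a coding exon, held 12 and 93, and Il21r -1.9 kb, upstream of the Il21r start, held 19 and 108. Without SKG iNKT2 replicate 1 both were still called, at log2 3.02 (adjusted p = 0.0017) and 2.58 (adjusted p = 0.0033). These last 2 regions were also low in iNKT1, with 0.0597 to 0.239 in all 4 iNKT1 libraries, so that SKG iNKT2 stood above the other 3 groups. Both can be in the region set through SKG iNKT2 alone, since peaks called in any library entered it, and their calls do not allow for that. Il21r +30.3 kb, at the 3' end of Il21r, had 0.533, 0.344 and 0.289 in BALB/c iNKT2 and 5.08, 3.49 and 2.83 in SKG iNKT2 (log2 3.28 ± 0.38, adjusted p = 1.8e-05). Its log2 change was 3.00 without replicate 1. Il4ra -44.0 kb, nearest to the start of Nsmce1 (log2 2.43 ± 0.39), and Il21r +30.7 kb (2.07 ± 0.37) completed the set. Without replicate 1 these 2 were at 2.12 and 1.92, the latter just under 4-fold.

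Not all of the interval differed by genotype. Il4ra -40.5 kb had 20.7 and 15.6 in BALB/c iNKT1, 16.3 and 18.4 in SKG iNKT1, 2.67, 0.899 and 0.866 in BALB/c iNKT2 and 2.17, 0.781 and 0.539 in SKG iNKT2. It fell in iNKT2 in both genotypes, by log2 -3.61 ± 0.42 (adjusted p = 3.0e-06) in BALB/c and -3.75 ± 0.44 (adjusted p = 4.7e-06) in SKG. Il21r -10.1 kb fell in the same 2 comparisons, from 22.2 and 24.8 in BALB/c iNKT1 to 0.608 to 2.54 in BALB/c iNKT2 (log2 -4.14 ± 0.50), and by -4.26 ± 0.52 in SKG. Their genotype changes in iNKT2 were -0.21 ± 0.45 and -0.17 ± 0.55 (adjusted p = 0.77 and 0.85). Il21r -19.3 kb lay between these patterns, with 8.24 and 8.77 in BALB/c iNKT1, 1.24 to 1.91 in BALB/c iNKT2 and 2.53 to 4.84 in SKG iNKT2. The Il4ra promoter had 36.1 and 34.5 in BALB/c iNKT1, 32.4 and 31.9 in SKG iNKT1, 17.9, 17.3 and 18.7 in BALB/c iNKT2 and 31.0, 24.0 and 25.5 in SKG iNKT2. The Il21r promoter had 16.7 and 17.8, 14.8 and 20.4, 6.84, 5.37 and 5.24, and 14.3, 6.75 and 6.2 in the same order, so that only replicate 1 of SKG iNKT2 stood clear of BALB/c iNKT2. In iNKT1, the region with the smallest p in the interval was Il21r +4.1 kb, an intron region at 18.9 and 19.8 in BALB/c and 8.54 and 9.56 in SKG (log2 -1.10 ± 0.22, adjusted p = 0.0091), under 4-fold.

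Summed over its 28 regions, Il4ra accessibility was 240 ± 1.05 (SD, n = 2) in BALB/c iNKT1, 240 ± 13.9 (n = 2) in SKG iNKT1, 84.0 ± 7.19 (n = 3) in BALB/c iNKT2 and 200.3 ± 48.8 (n = 3) in SKG iNKT2. The SKG iNKT2 libraries had 256, 164 and 181, all above the 3 BALB/c iNKT2 libraries at 92.3, 79.9 and 79.8, and without replicate 1 their mean was 172. For Il21r the sums were 352 ± 10.8, 347 ± 28.4, 124 ± 18.3 and 255 ± 71.4, and 214 for SKG iNKT2 without replicate 1. The SKG to BALB/c ratio in iNKT2 was 2.38 for Il4ra and 2.05 for Il21r, and 2.05 and 1.72 without replicate 1, whereas in iNKT1 it was 1.00 and 0.986. The values without SKG iNKT2 replicate 1 keep BALB/c iNKT2 replicate 1, the highest BALB/c iNKT2 library at both genes. The part played by the higher iNKT1 marker sum of SKG iNKT2 replicate 1 was not tested. The marker sums of SKG iNKT2 (25.6 to 33.0) and BALB/c iNKT2 (21.8 to 32.7) overlapped.

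Il2ra encodes CD25, the alpha chain that makes the IL-2 receptor high-affinity. In SKG iNKT2 2 of 22 regions rose (0.252% of all regions), and 10 were higher with no fold threshold (4.02% of all regions). Without replicate 1 the counts were also 2 and 10, against 0.212% and 4.58% of all regions. Il2ra -16.7 kb had 0, 0.0265 and 0.0825 in BALB/c iNKT2 and 1.63, 1.79 and 1.69 in SKG iNKT2. BALB/c iNKT1 had 0.0896 and 0.132 and SKG iNKT1 0.385 and 0.385. SKG iNKT2 therefore stood clear of the 3 other groups at a region that was nearly closed in them. Peaks called in any library entered the region set, so this region can be listed through SKG iNKT2 alone. Its interval and p-value below do not allow for that selection. With 3 insertions in all of BALB/c iNKT2 and 119 in SKG iNKT2, the ratio of rates was 53.0, with an exact 95% interval of 17.7 to 261 for counting error (adjusted p = 1.5e-05 in edgeR). Its interaction with subset was not called (adjusted p = 0.077).

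Il2ra +2.7 kb, in the first part of the gene body, had 0.251, 0.344 and 0.165 in BALB/c iNKT2, 1.43, 1.29 and 1.21 in SKG iNKT2, 1.91 and 1.54 in BALB/c iNKT1 and 0.707 and 1.03 in SKG iNKT1. It rose 4.96-fold in SKG iNKT2 (log2 2.31 ± 0.38, adjusted p = 0.00045). In iNKT1 the change did not pass (adjusted p = 0.24), and the difference of the 2 changes was 3.31 ± 0.58 (adjusted p = 0.0060). At Il2ra -7.6 kb the genotypes were ordered oppositely in the 2 subsets. BALB/c iNKT1 had 3.55 and 4.72 and SKG iNKT1 0.964 and 0.642, whereas BALB/c iNKT2 had 1.82, 1.06 and 0.989 and SKG iNKT2 3.39, 3.40 and 4.25. The fall in iNKT1 was 5.10-fold (log2 -2.35 ± 0.38, adjusted p = 0.0018), iNKT2 was higher by 1.49 ± 0.27 (adjusted p = 0.00095, under 4-fold), and the difference was 3.84 ± 0.47 (adjusted p = 0.00079). The call in iNKT1 was lost without any one of the 4 iNKT1 libraries, at adjusted p of 0.014 to 0.045.

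The intron region at +8.8 kb was highest in BALB/c iNKT1, at 24.0 and 25.5 against 8.61 and 8.98 in SKG iNKT1, 5.74 to 7.84 in BALB/c iNKT2 and 7.58 to 9.39 in SKG iNKT2. Its change was -1.49 ± 0.20 by genotype in iNKT1 (adjusted p = 0.00040) and -1.86 ± 0.17 by subset in BALB/c (adjusted p = 3.6e-07), both under 4-fold, and 0.30 ± 0.16 by genotype in iNKT2 (adjusted p = 0.20). The intron region at +12.5 kb was highest in SKG iNKT2, at 31.2, 29.5 and 30.5 against 18.1, 19.2 and 19.3 in BALB/c iNKT2, 14.0 and 17.0 in BALB/c iNKT1 and 10.0 and 10.6 in SKG iNKT1. The most accessible Il2ra region, +11.0 kb, had 74.7 and 78.8 in BALB/c iNKT1, 69.2 and 82.4 in SKG iNKT1, 46.6 to 55.3 in BALB/c iNKT2 and 63.6 to 77.3 in SKG iNKT2. BALB/c iNKT2 was thus the lowest group at this region and at the promoter, where it had 21.4, 18.6 and 19.5 against 27.9, 30.0 and 31.2 in SKG iNKT2. The regions at +8.8 and +12.5 kb therefore held different orders of the 4 groups.

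**Figure D5:**
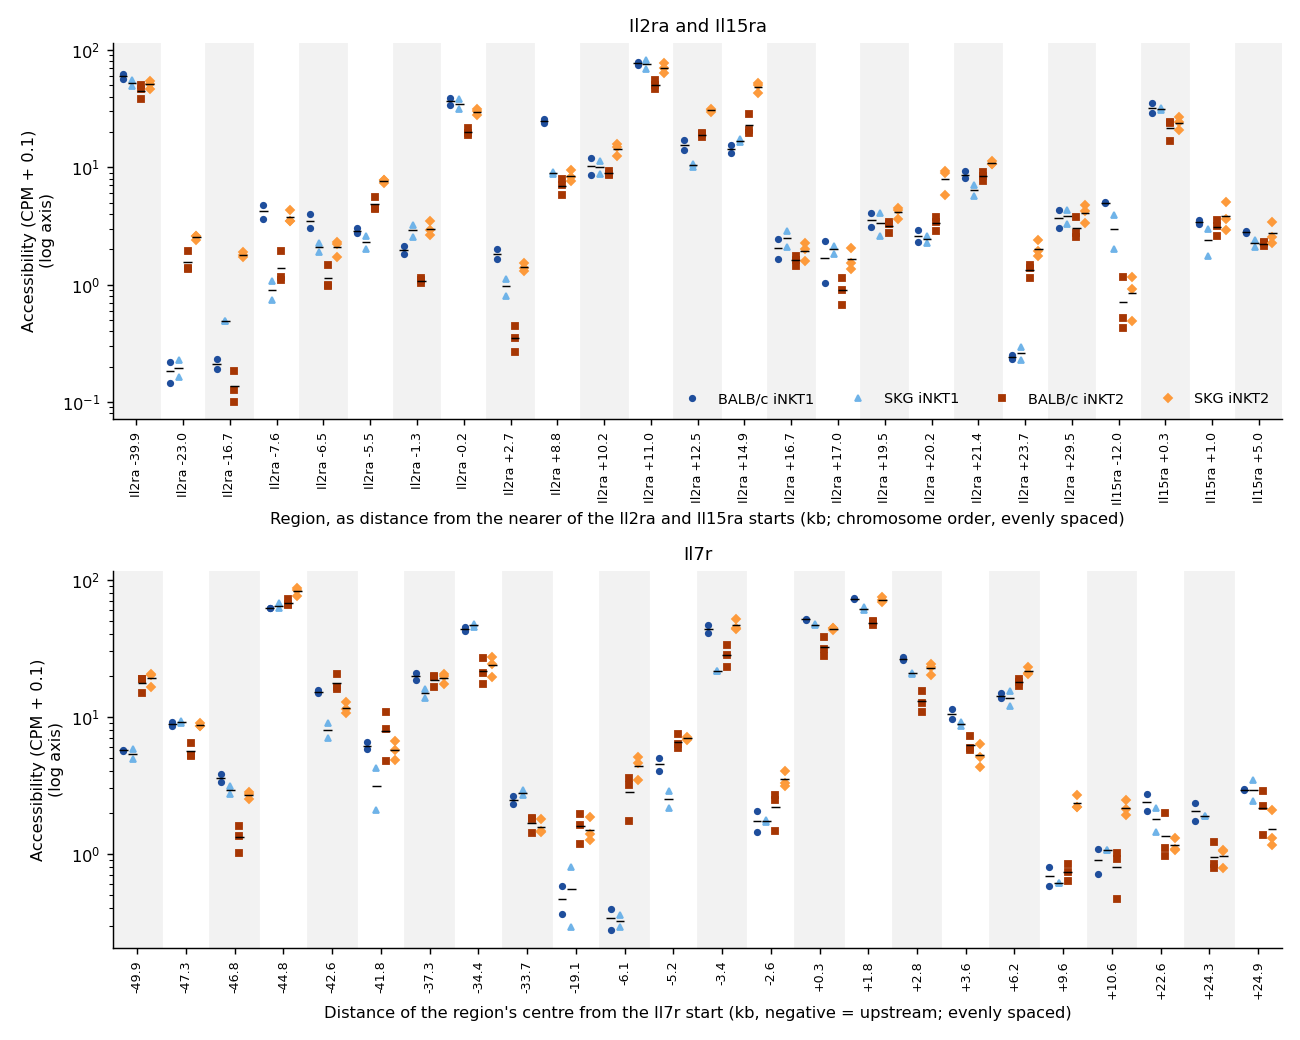
Accessibility in CPM plus 0.1 (log axis) at the regions named under Il2ra or Il15ra (top) and under Il7r (bottom), in order of position. Points are libraries, coloured by group, and bars are group means. SKG iNKT2 (diamonds) stands above the other groups at Il2ra -16.7 kb and Il2ra +12.5 kb, BALB/c iNKT1 (circles) stands above them at Il2ra +8.8 kb, and SKG iNKT1 (triangles) lies lowest at Il2ra -7.6 kb and Il7r -3.4 kb.

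Il15ra encodes the chain that binds and presents IL-15. No region of its window was called by genotype. With no fold threshold, 3 of 13 were higher in SKG iNKT2 and 0 lower, against 4.02% and 10.1% of all regions. Without replicate 1 these counts were the same, against 4.58% and 10.5%. All 3 also lay in the Il2ra window. The window's regions summed to 89.9 ± 10.2 (SD, n = 3) in BALB/c iNKT2 and 142 ± 11.2 (n = 3) in SKG iNKT2. The Il15ra promoter had 34.9 and 28.9 in BALB/c iNKT1, 32.0 and 31.0 in SKG iNKT1, 16.7, 23.8 and 24.1 in BALB/c iNKT2 and 20.5, 26.6 and 24.0 in SKG iNKT2. The genotypes overlapped in both subsets. The smallest p by genotype in iNKT2 among the 4 regions nearest to its start was at +5.0 kb (log2 0.33 ± 0.23, adjusted p = 0.33). Il15ra -12.0 kb, which overlaps the untranslated 3' end of Il2ra, had 4.93 and 4.89 in BALB/c iNKT1, 1.93 and 3.79 in SKG iNKT1, 0.330 to 1.07 in BALB/c iNKT2 and 0.386 to 1.06 in SKG iNKT2. It fell in iNKT2 in BALB/c (log2 -2.99 ± 0.43, adjusted p = 2.5e-05) and missed the 4-fold threshold in SKG (log2 -1.99 ± 0.48, adjusted p = 0.0026). In iNKT1 it differed by -0.78 ± 0.45 (adjusted p = 0.42).

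Il7r encodes the IL-7 receptor alpha chain, CD127, which sustains naive and memory T cells. All 24 regions had the Il7r start as the nearest, and none was called by genotype in either subset. With no fold threshold 7 were higher and 1 lower in SKG iNKT2, against 4.02% and 10.1% of all regions, and 5 and 1 without replicate 1, against 4.58% and 10.5%. The region at -3.4 kb had 40.9 and 46.9 in BALB/c iNKT1 and 21.7 and 21.5 in SKG iNKT1. In iNKT2 it had 28.1, 33.5 and 23.1 in BALB/c and 44.5, 43.9 and 52.1 in SKG. The genotypes were ordered oppositely in the 2 subsets without overlap in either, at 2.04-fold lower in SKG iNKT1 (log2 -1.03 ± 0.18, adjusted p = 0.0026) and 1.65-fold higher in SKG iNKT2 (0.73 ± 0.14, adjusted p = 0.0014). The difference of the 2 was log2 1.75 ± 0.22 with an adjusted p of 0.0010, under the 4-fold threshold.

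Other Il7r regions differed by subset or held their level. Il7r -49.9 kb, in an intron of Spef2, had 5.56 and 5.64 in BALB/c iNKT1, 4.82 and 5.77 in SKG iNKT1, 14.8 to 18.9 in BALB/c iNKT2 and 16.4 to 20.6 in SKG iNKT2. It was higher in iNKT2 by log2 1.64 ± 0.19 in BALB/c (adjusted p = 2.5e-06) and 1.84 ± 0.20 in SKG (adjusted p = 1.9e-06), under 4-fold in each. Il7r +9.6 kb was highest in SKG iNKT2, at 2.59, 2.11 and 2.09 against 0.533, 0.635 and 0.742 in BALB/c iNKT2 and 0.478 to 0.705 in the iNKT1 libraries (log2 1.84 ± 0.31 by genotype, adjusted p = 0.00056). This region can be listed through SKG iNKT2 alone, and its p-value does not allow for that. The most accessible region, -44.8 kb, had 62.0 to 67.2 in the iNKT1 libraries, 65.6 to 72.3 in BALB/c iNKT2 and 75.8 to 86.7 in SKG iNKT2, with a genotype change of 0.27 ± 0.11 in iNKT2 (adjusted p = 0.077). The promoter had 51.1 and 51.6 in BALB/c iNKT1, 47.2 and 46.8 in SKG iNKT1, 38.1, 31.2 and 27.8 in BALB/c iNKT2 and 44.7, 42.8 and 44.4 in SKG iNKT2. Of all 24 regions, -42.6 kb, named after its values were seen, was the only one lower in SKG iNKT2 with no fold threshold, at 20.4, 16.5 and 15.9 in BALB/c and 12.6, 10.6 and 11.3 in SKG.

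The 145 regions resembled the rest of the table in size and base composition, with a median width of 363 bp against 343 bp and a median GC content of 49.8% against 48.7%. A gene start lay in 6.90% of them, against 10.5% of all regions. The shares of whole regions that hold each string are given without a test. RUNX was found in 35.9% of receptor regions and 36.5% of all, ETS in 57.9% and 53.9%, NFAT in 27.6% and 31.3% and Egr in 23.4% and 19.0%. STAT was found in 17.9% and 12.2%, T-box in 10.3% and 7.47% and TCF in 6.21% and 7.57%. In the middle 300 bases NFAT was found in 15.9% of receptor regions and 23.4% of all, and STAT in 11.7% and 8.75%. By gene, STAT strings lay in 7 of 22 Il2ra regions, 6 of 24 Il7r regions and 5 of 35 Il2rb regions, and T-box strings in 6 of 28 Il4ra regions and 0 of 24 Il7r regions.

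Genes of the same signalling pathway were read the same way. Of 376 distinct regions around 19 ligand, receptor, kinase, Stat and target genes, 6 (1.60%) rose and 3 (0.798%) fell in SKG iNKT2 against BALB/c iNKT2, where the shares of all regions were 0.252% and 4.73%. In SKG iNKT1 against BALB/c iNKT1, 0 rose and 1 (0.266%) fell, where the shares of all regions were 0.281% and 0.732%. Il7 and Il13ra1 held no region in their windows. Among ligands, 1 of 37 Il4 regions and 1 of 11 Il9 regions rose in SKG iNKT2 (0.252% of all regions) and 2 of 20 Il21 regions fell (4.73% of all regions). Such small counts by gene were not tested against these shares. The Il4 region was at 0.897 ± 0.361 in BALB/c iNKT2 and 7.75 ± 3.09 in SKG iNKT2 (log2 3.08 ± 0.36, adjusted p = 1.9e-05). Its iNKT1 means were 0.193 in BALB/c and 1.16 in SKG, so it can be listed through SKG iNKT2 alone. At Il21 the same comparison gave 1.37 ± 0.130 and 0.299 ± 0.0534 (log2 -2.22 ± 0.44, adjusted p = 0.0021) at the region with the smallest p. That region averaged 0.244 in BALB/c iNKT1 and 0 in SKG iNKT1, so it can be listed through BALB/c iNKT2 alone. Neither p-value allows for such selection. Il21 regions also rose in iNKT2 against iNKT1, at 11 of 20 in BALB/c and 11 of 20 in SKG, where 15.5% and 10.2% of all regions rose.

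Among targets and feedback genes, 3 of 39 regions of Bcl2, which encodes a survival protein, and 1 of 22 regions of Cish, which encodes an inhibitor induced by Stat5, rose in SKG iNKT2, where 0.252% of all regions rose. The leading Bcl2 region was at 1.90 ± 0.701 in BALB/c iNKT2 and 12.8 ± 2.34 in SKG iNKT2 (log2 2.75 ± 0.22, adjusted p = 9.2e-07), with 13.9 ± 1.03 in BALB/c iNKT1 and 20.6 ± 0.388 in SKG iNKT1. The Cish region was at 0.462 ± 0.268 and 3.05 ± 0.234 (log2 2.65 ± 0.32, adjusted p = 3.2e-05). Socs2, another feedback inhibitor, had 1 of 10 regions that fell, where 4.73% of all regions fell. It went from 3.48 ± 0.151 to 0.396 ± 0.223 (log2 -3.18 ± 0.34, adjusted p = 1.1e-05). No region was called by genotype in either subset at Il2, Il15, Il9r, Crlf2, Jak1, Jak3, Stat3, Stat5a, Stat5b, Stat6, Socs1, Socs3 or Mcl1. Between subsets, 18 of 39 Bcl2 regions fell in BALB/c iNKT2 and 12 of 39 in SKG iNKT2, where 6.36% and 6.96% of all regions fell.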

How the data were processed

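Open chromatin was profiled by ATAC-seq in 10 libraries of 4 groups, taken from the library labels. The authors mapped reads to mm10 (Bowtie 1.0 in the submitters' processing notes), discarded duplicates and mitochondrial reads, called summits with MACS2 on short fragments, merged them into 1 region set for all replicates and counted transposase insertions. The deposited table holds raw whole-number counts of insertions per region and library, although its name speaks of normalized counts, for 94823 regions. The study states a uniform summit width that is larger than many of these regions, and how the narrower ones arose is not given in the sources used here. Because peaks of any replicate entered the set, a region open in only 1 group can be listed through that group, and its p-value does not allow for this. Totals of 14988590 to 36342635 insertions cover the listed regions only, so the full depth is unknown.

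Testing used the quasi-likelihood F test of edgeR 4.0.16 on these counts (R 4.3.3, TMM factors, all 10 libraries in 1 fit, no filter), adjusted by the Benjamini-Hochberg method over all regions. A region was called at adjusted p under 0.01 and at least 4-fold. Log2 changes carry the standard error from the F statistic, levels are in CPM, and 5 contrasts were fitted: the subset difference per genotype, the genotype difference per subset, and their interaction. The study used voom with limma, which is an alternative here (limma 3.58.1), as is DESeq2 1.42.0. The scripts were tested on simulated data. Some marker genes are not reported here. Genes came from GENCODE M21, sequences from RefSeq's GRCm38, and coordinates are 1-based. The members, gene lists, motifs and named-region rule were chosen with earlier results of these data known. Named at each gene were the promoter, the region of smallest p in each contrast, called regions by genotype (up to 5), and the most accessible region, and promoters were ranked for likeness with a pseudocount of 0.5. Replicate numbers were checked as pairs by correlating deviations from group means over regions. Between BALB/c and SKG iNKT2 the same numbers gave r of 0.49, 0.17 and 0.20, all above 0.1. Unlike numbers gave 0.28 (BALB/c replicate 3 with SKG replicate 2) and 0.18 (BALB/c replicate 2 with SKG replicate 3). The data thus set replicate 1 apart from replicates 2 and 3 but did not pair replicates 2 and 3 by number. The replicate block was fitted over all 10 libraries, the iNKT1 libraries included, and is given as an alternative only. Between BALB/c iNKT1 and BALB/c iNKT2 the same numbers gave 0.14 and 0.11, also above 0.1, and an unlike pair reached 0.092. The 2 iNKT1 libraries of a genotype deviate from their mean in mirror image, so these r are not independent. In the remaining groupings r ran from -0.017 to 0.064 with 2 pairs each. The fit used for the calls paired no libraries in any contrast, the BALB/c subset contrast included.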

Additional observations from a re-analysis of the deposited data

Results flagged for a closer look

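At 4 regions the SKG against BALB/c change was set apart because it differed between iNKT2 and iNKT1 by the interaction test (edgeR, adjusted p under 0.01 and at least 4-fold). At Il2ra -7.6 kb the change in iNKT2 exceeded that in iNKT1 by log2 3.84 (adjusted p = 0.00079). At Il2ra +2.7 kb the difference was 3.31 (adjusted p = 0.0060), at Il4ra +2.5 kb 2.83 (adjusted p = 0.0052) and at Il21r -22.1 kb 2.50 (adjusted p = 0.00039). Over the 10 fits that each left out 1 library, Il21r -22.1 kb was called in 10, Il2ra -7.6 kb in 8, Il4ra +2.5 kb in 4 and Il2ra +2.7 kb in 2, and none changed direction. The calls at Il2ra +2.7 kb and Il4ra +2.5 kb were lost without any one of the iNKT1 libraries and without BALB/c iNKT2 replicate 2 or 3, that at Il2ra +2.7 kb also without SKG iNKT2 replicate 2 or 3, and that at Il2ra -7.6 kb without replicate 2 of BALB/c or of SKG iNKT1. At all 4, the BALB/c iNKT2 mean was lower than the means of BALB/c iNKT1 and SKG iNKT2, and no explanation was tested. The highest of the SKG iNKT2 values was replicate 1 at Il4ra +2.5 kb, Il21r -22.1 kb and Il2ra +2.7 kb and replicate 3 at Il2ra -7.6 kb.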

How the results depend on the processing

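Counts of called receptor regions moved with the thresholds and with low regions. In SKG iNKT2 against BALB/c iNKT2 the 11 regions called higher became 20 with voom and quantile normalization, 3 among regions at or above the lower quartile of mean count, 31 at adjusted p under 0.05 and at least 2-fold, 42 with no fold threshold and 7 in a 10 kb window. Of all 94823 regions, 2169 were higher at adjusted p under 0.05 and at least 2-fold and 3812 with no fold threshold. The filter on low regions left 98 higher of 71183. The 0 called lower became 1 with DESeq2-type size factors, with DESeq2, at the looser threshold and with no fold threshold. Of all regions 4652, 4791, 11570 and 9619 were lower in these settings, in the same order. The replicate block, which joins all 10 libraries by number, gave 11 higher and 1 lower, where 239 and 4730 of all regions were called. In SKG iNKT1 the 1 region called lower became 0 with voom and 4 at the looser threshold and with no fold threshold. Of all regions, the 694 called lower became 129, 2757 and 1344. The interaction's 4 became 2 with library totals, 18 at the looser threshold and 8 with no fold threshold. Over all regions its 179 became 85, 1506 and 423. In BALB/c, iNKT2 against iNKT1, the 4 higher became 1 after the filter on low regions, 8 with no fold threshold, and 2 in a 10 kb window or where the receptor's start was nearest, and the 15 lower became 30 with voom, 9 after the filter, 43 at the looser threshold, 54 with no fold threshold and 9 in a 10 kb window. Of all regions, the 14725 higher became 7880 after the filter and 24323 with no fold threshold. The 6029 lower became 8966 with voom, 3579 after the filter, 15164 at the looser threshold and 22217 with no fold threshold. In SKG, the 9 higher became 4 with voom, 2 after the filter, 22 at the looser threshold and 21 with no fold threshold, and the 4 lower became 2 after the filter, 15 at the looser threshold, 15 with no fold threshold, and 2 in a 10 kb window or where the start was nearest. Of all regions, the 9654 higher became 4244 with voom, 6745 after the filter, 20480 at the looser threshold and 17418 with no fold threshold. The 6599 lower became 4385 after the filter, 14241 at the looser threshold and 16668 with no fold threshold. Of all regions in SKG iNKT2 against BALB/c iNKT2, voom called 1173 higher and 3469 lower, against 239 and 4488. Library totals without TMM factors shifted the median of all regions to 0.34 and 0.32 in the subset comparisons of BALB/c and SKG and to -0.12 for the iNKT2 genotype comparison, and gave 11 higher and 3 lower in the SKG subset comparison. In the latter 11038 of all regions were higher and 5684 lower.

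Leaving out 1 library at a time gave 8 to 15 higher and 0 to 1 lower in the iNKT2 genotype comparison, 0 higher and 0 to 1 lower in that of iNKT1, 3 to 5 higher and 11 to 18 lower between BALB/c subsets, 6 to 9 higher and 3 to 9 lower between SKG subsets, and 1 to 7 for the interaction with 0 in the other direction. The 9 lower came without SKG iNKT2 replicate 1, the 6 higher without either SKG iNKT1 library (6 lower without its replicate 1), and the call in iNKT1 was lost without any of the 4 iNKT1 libraries. The interaction gave 2 without BALB/c iNKT2 replicate 2 or 3 and 7 without BALB/c iNKT2 replicate 1. Its calls over all regions moved the same way, from 179 to 89 and 64 and to 294. Without any one of the iNKT1 libraries, it called fewer receptor regions and fewer of all regions. The 1 region called lower in iNKT2 appeared when either SKG iNKT2 replicate 1 or BALB/c iNKT2 replicate 2 was left out. A lone iNKT1 library was then assumed to vary like the other groups. Without SKG iNKT2 replicate 1 and with no fold threshold, an alternative chosen after seeing the data, 32 regions (22.1%) were higher, against 4.58% of all regions. Over the named regions and alternatives, 562 values kept their direction and side of the threshold, 15 lost a call, 10 gained one and 0 reversed. The cause was not tested. With 2 to 3 libraries a group and a few insertions in many regions, differences at low regions were not detectable below a few insertions per library.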
